A study of Rattus norvegicus with 105 samples.

Results

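The enzymes that clear formaldehyde and longer aldehydes were followed in rat hepatocytes exposed to nitroalkanes. The set was named by gene symbol, as Adh5, Esd, Adh1, Adh4, Aldh2, Aldh1a1, Aldh1b1, Aldh1l1, Aldh3a2 and Aldh9a1, and every probe with such a symbol was taken. Of these 10 genes, 8 were measured, by 9 of the 22253 probes of the assay, since Adh5 had 2 probes, numbered 39053 and 50076. Adh1 and Adh4 were not analysed here.

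Formaldehyde binds glutathione, and the adduct is oxidised by the Adh5 product and then split to formate and glutathione by the Esd product, S-formylglutathione hydrolase. Free formaldehyde and longer aldehydes are oxidised in the mitochondrion by Aldh2 and Aldh1b1 and outside it by Aldh1a1, Aldh3a2 and Aldh9a1, each with its own preferred substrates. Formate enters folate metabolism, where Aldh1l1 releases it as carbon dioxide. The liver is the main site of these reactions, and nitroalkanes are of interest because their oxidative removal of the nitro group yields an aldehyde or a ketone.

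The assay was TempO-Seq, which counts ligated pairs of detector oligonucleotides, and the cells were primary hepatocytes that came from female rats of the Sprague-Dawley stock, bought as a single lot, plated on collagen and exposed for 24 hours. Cells received nitroethane (NE), 1-nitropropane (1NP) or nitromethane (NM) at 8 concentrations between 0.003 and 10 mM, and these compounds carry a nitro group on a carbon chain that is shortest in NM and longest in 1NP. Reference wells received benzo[a]pyrene (BaP, an activator of the aryl hydrocarbon receptor, AhR) at 50 µM, CITCO (an activator of human CAR, with less potency on rat CAR) at 10 or 20 µM, rifampin at 20 or 40 µM, or WY-14643 (a PPARα activator), and control wells held medium or DMSO. There were 35 groups of 3 libraries, 105 in all: set 1 held NE, NM, the reference compounds, medium and DMSO (72 libraries), and set 2 held 1NP, WY-14643, medium and DMSO (33 libraries).

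The wells came from the same cell lot, so each p-value reflects well-to-well spread and says nothing of variation between animals. The titles give WY-14643 as 50 µM in both sets, but the library names of set 2 carry 100, and DMSO is given as 0.2% in the protocol and as 0.5 in the titles. The labels do not say whether nitroalkane wells held DMSO, so each concentration was set against both controls of its own set. Plate row A held the medium and 0.003 mM wells of a set and row B its DMSO and 0.01 mM wells. The rows then followed the concentration up to 10 mM in row H, so concentration and plate row cannot be told apart. The labels name a human probe panel, while the symbols in the table are written as rat symbols.

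Library depth was 5475419 to 11122665 counts, with a median of 8680678, and the 9 probes together took 0.134% to 0.282% of them. Levels are given in CPM, counts scaled to the library total, in which a count of 3 was worth 0.270 to 0.548 CPM. All 8 hepatocyte markers were present, with a summed level of 6131 to 15356 CPM, while markers of stellate, Kupffer, endothelial, lymphoid and erythroid cells summed to 0 to 11.7 CPM per list. The cholangiocyte markers Krt19, Epcam and Sox9 were present and Krt7 had a median of 0 CPM. In such bulk wells, fewer cells of a type and less RNA per cell cannot be told apart.

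Some libraries stood apart from their group, among them NE 10 mM replicate 2, which had counts in 21627 probes, against a median of 13792 over all libraries, and NM 10 mM replicate 3, NM 3 mM replicate 1, NM 1 mM replicate 1 and NE 0.01 mM replicate 3. The library labelled 1NP 10 mM replicate 3 went against its group: over 7618 probes it correlated at 0.875 and 0.882 with the other libraries labelled 1NP 10 mM, and at 0.953 to 0.979 with the libraries of NE 10 mM (Pearson correlation of log2 CPM). Calls of members that rest on these libraries are given with and without them.

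Among the 7 probes with a mean above 10 CPM, Aldh1a1 and Aldh3a2 had the widest spread of group means, the highest over the lowest being 3.90-fold and 3.70-fold, and both Adh5 probes the narrowest, at 1.46-fold and 1.49-fold. The low-count probes of Aldh1b1 and Aldh1l1 spread over 4.94-fold and 3.96-fold. Promoter windows of Aldh1a1, Aldh3a2 and Adh5 are shown. Aldh1a1 and Aldh3a2 followed each other across groups and both rose with BaP, while Adh5 had the narrowest spread among the 7 probes. The windows are from RefSeq (build GRCr8), 250 bases before to 50 after the start in its promoter table, 5′ to 3′ on the strand of the gene. For Aldh1a1 that start lies inside the annotated gene, chr1:227426939-227579497, and for Aldh3a2 it lies inside chr10:46427789-46448449. Windows were found for 8 of the 10 named genes. Capitals mark GCGTG, the core of the AhR response element, AGGTCA, a sequence bound by nuclear receptors, and TGACNNNGC, the core of the antioxidant response element, searched on both strands, so that CACGC is GCGTG read on the other strand.
Aldh1a1, chr1:227537370-227537669, + strand: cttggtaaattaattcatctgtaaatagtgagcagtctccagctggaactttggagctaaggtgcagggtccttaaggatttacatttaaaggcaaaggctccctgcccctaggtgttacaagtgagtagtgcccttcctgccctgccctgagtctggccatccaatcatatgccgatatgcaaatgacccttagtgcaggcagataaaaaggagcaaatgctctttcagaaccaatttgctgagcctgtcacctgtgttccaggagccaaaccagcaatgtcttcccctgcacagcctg
Aldh3a2, chr10:46448286-46448585, - strand: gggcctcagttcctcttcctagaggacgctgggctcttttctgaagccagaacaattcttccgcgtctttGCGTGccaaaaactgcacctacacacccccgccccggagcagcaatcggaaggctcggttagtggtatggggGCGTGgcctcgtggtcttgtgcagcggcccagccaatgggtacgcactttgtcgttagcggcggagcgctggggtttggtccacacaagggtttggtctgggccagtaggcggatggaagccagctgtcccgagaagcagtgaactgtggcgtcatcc
Adh5, chr2:229648307-229648606, + strand: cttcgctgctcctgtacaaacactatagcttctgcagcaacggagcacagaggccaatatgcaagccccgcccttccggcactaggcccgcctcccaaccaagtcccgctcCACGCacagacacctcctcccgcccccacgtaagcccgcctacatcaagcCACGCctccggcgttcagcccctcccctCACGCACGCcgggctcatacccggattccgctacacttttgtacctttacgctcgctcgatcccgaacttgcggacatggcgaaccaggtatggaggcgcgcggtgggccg

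None of the 3 motifs was found in the Aldh1a1 window. The Aldh3a2 window held GCGTG at 2 places and the Adh5 window at 4, of which 2 overlapped. Among 33469 windows of the same length, GCGTG was found in 29.7%, AGGTCA in 16.2% and TGACNNNGC in 12.1%. Such matches describe letters and are no measure of binding.

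Adh5, the glutathione-dependent formaldehyde dehydrogenase, stayed close to its median level in nearly every library. With probe 39053, 102 of 105 libraries lay within 1.25-fold of the median of 227 CPM, and with probe 50076, 97 of 105 lay within 1.25-fold of the median of 64.3 CPM. At 10 mM, probe 39053 had 240, 185 and 242 CPM in NE wells, 227, 210 and 241 CPM in wells labelled 1NP and 232, 215 and 182 CPM in NM wells, against 238, 229 and 229 CPM in medium wells and 214, 225 and 237 CPM in DMSO wells of set 1. The NE and NM wells at 10 mM overlapped the medium wells of set 1. The lowest values belonged to NE replicate 2 and NM replicate 3, both of which stood apart from their group. The 1NP wells belong to set 2, whose control wells are not listed here. In set 2, medium against DMSO was -0.26 ± 0.11 for this probe on the log2 scale (SE; adjusted p = 0.09 in edgeR).

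Against medium, the log2 change of Adh5 probe 39053 at 10 mM was -0.04 with NE (95% interval -0.46 to 0.38), 0.15 with 1NP (-0.06 to 0.35) and -0.19 with NM (-0.45 to 0.07). Probe 50076 gave -0.01 with NE (-0.34 to 0.33), 0.15 with 1NP (-0.16 to 0.47) and -0.36 with NM (-0.81 to 0.09). No Adh5 value passed the test against medium at any concentration, a call being an adjusted p under 0.05 in edgeR's quasi-likelihood test, with the Benjamini-Hochberg method applied to every probe tested. Against DMSO, only probe 39053 at 0.003 mM 1NP was called (-0.26 ± 0.09 SE, adjusted p = 0.04).

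The probes of Adh5 did not follow each other: over the 35 group means their log2 levels correlated at r = 0.165. The ratio of probe 39053 to probe 50076 had a median of 3.48 over libraries. It reached 9.99 in NE 0.01 mM replicate 3, where probe 39053 read 427 CPM, against 229 and 243 CPM in the other replicates, and probe 50076 read 42.8 CPM, against 67.8 and 55.4 CPM. The next highest ratio was 4.69.

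Esd, the hydrolase that completes the glutathione route, varied more, with group means from 23.4 to 78.4 CPM. It read 80.8, 65.8 and 88.6 CPM at 10 mM NE and 47.6, 50.0 and 27.3 CPM at 10 mM NM, while medium wells of set 1 had 41.9, 49.4 and 50.6 CPM. Every NE well was above every NM and medium well. Esd was higher with NE than with NM at 10 mM (log2 0.97 ± 0.29 SE, adjusted p = 0.0207), but NE against medium was not called (0.74 ± 0.33, adjusted p = 0.0874). Without NM 10 mM replicate 3 the NE against NM difference was 0.71 (adjusted p = 0.0848), without NE replicate 1 it was 0.89 (0.07) and without NE replicate 3 it was 0.83 (0.0836).

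Within set 2, Esd was low in plate row A. It had 19.5, 15.9 and 34.6 CPM at 0.003 mM 1NP and 29.1, 24.7 and 22.3 CPM in medium, against 41.7, 40.5 and 42.7 CPM in DMSO wells. Medium against DMSO was -0.81 ± 0.21 (adjusted p = 0.00867). In set 1 the medium and DMSO wells overlapped, with 41.9 to 50.6 CPM in medium and 35.1 to 58.7 CPM in DMSO, and the difference of set 2 minus set 1 was not called (-0.84, 95% interval -1.49 to -0.18, adjusted p = 0.149; 2.1% of probes, 0 of 9 members by edgeR).

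**Figure D1:**
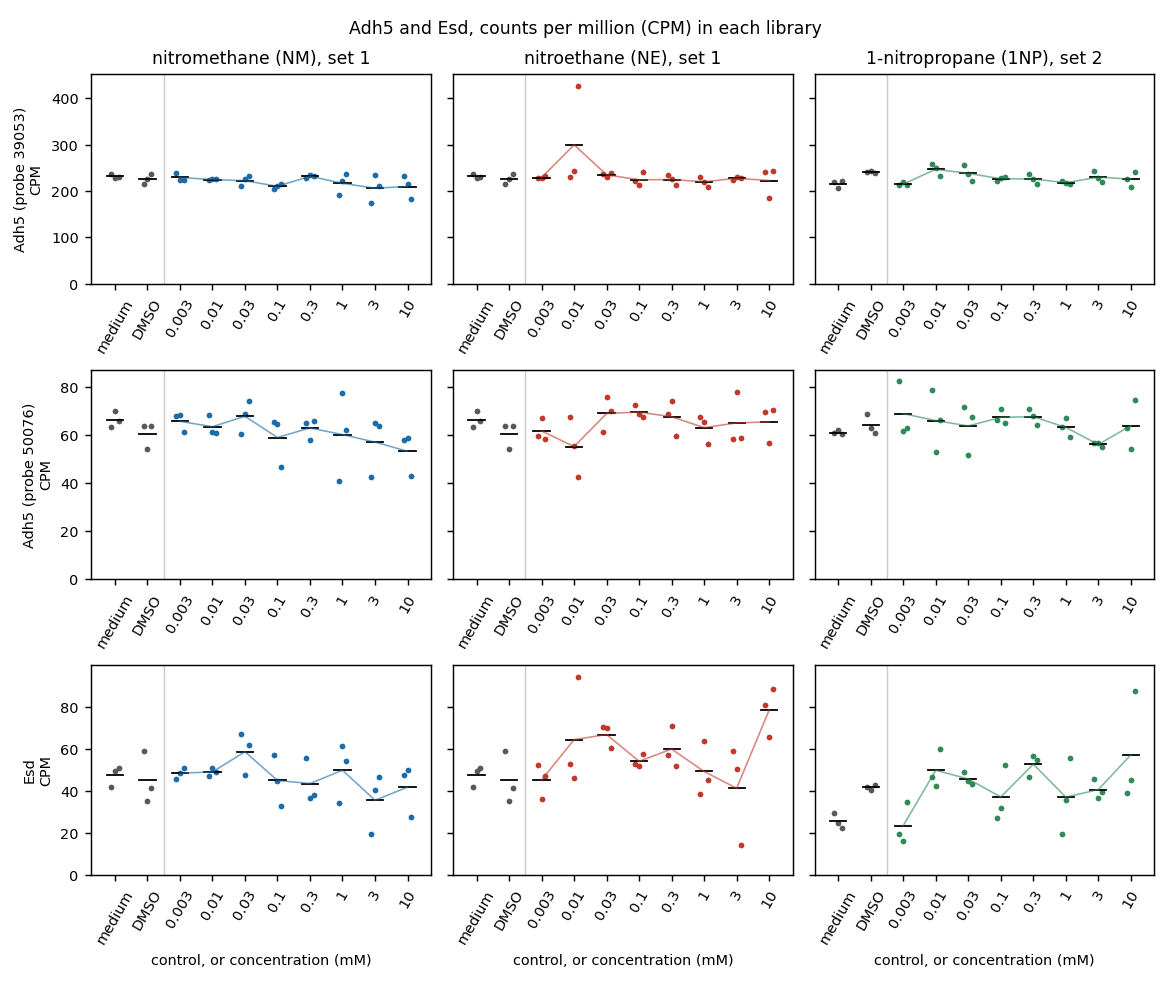
CPM of both Adh5 probes and of Esd in each library (points, n = 3 a group; black bars are group means) for medium, DMSO and the 8 concentrations in mM; NM and NE share the controls of set 1, and 1NP has those of set 2. Probe 39053 of Adh5 stays between 173 and 259 CPM apart from NE 0.01 mM replicate 3 at 427 CPM, and Esd is highest in the NE 10 mM wells, NE 0.01 mM replicate 3 and 1NP 10 mM replicate 3.

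Aldh1a1, a cytosolic aldehyde dehydrogenase known for oxidising retinal and lipid aldehydes, rose with NE at the upper end of its series. At 10 mM NE the wells had 1361, 1047 and 1153 CPM, and at 3 mM NE they had 774, 708 and 737 CPM. Medium wells of set 1 had 359, 348 and 405 CPM and DMSO wells 630, 607 and 654 CPM. All NE wells at 3 and 10 mM were above all wells of both controls. Aldh1a7, a close rodent copy of Aldh1a1, was not analysed here, and the sources used do not say whether the Aldh1a1 probe tells them apart.

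Against medium, Aldh1a1 was higher by 1.69 ± 0.18 (log2, SE; adjusted p = 2.49e-08) at 10 mM NE and by 1.07 ± 0.17 (adjusted p = 0.000102) at 3 mM NE. Against DMSO the change at 10 mM was 0.87 ± 0.17 (adjusted p = 0.000284), and 3 mM NE against DMSO was not called for any member, where 6.08% of probes were called and 1 member, Aldh3a2, had an unadjusted p under 0.05 in edgeR. Without NE replicate 2, which stood apart, the 10 mM changes were 1.84 (adjusted p = 5.78e-09) against medium and 1.03 (4.91e-05) against DMSO. The slope of Aldh1a1 over the 8 ranks of NE concentration, which uses no control wells, was 0.17 ± 0.03 per rank (adjusted p = 0.00013) and 0.10 (adjusted p = 0.054) without the 10 mM wells. The plot of Aldh1a1 by concentration shows little change with NE between 0.01 and 1 mM, where group means stayed below the mean of 740 CPM at 3 mM.

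Aldh3a2, the fatty aldehyde dehydrogenase of the endoplasmic reticulum, rose with NE at 3 mM, where wells had 171, 173 and 220 CPM, against 87.9, 93.6 and 82.4 CPM in medium (1.17 ± 0.20, adjusted p = 0.000199). At 10 mM NE it had 146, 111 and 146 CPM, above each medium well (0.62 ± 0.20, adjusted p = 0.0164). It overlapped the DMSO wells there, which had 143, 132 and 140 CPM (-0.08 ± 0.19, adjusted p = 0.778). The 10 mM call against medium was lost without NE replicate 1 (0.49, adjusted p = 0.0951), NE replicate 3 (0.53, 0.0656) or medium replicate 3 (0.57, 0.0706), and kept without NE replicate 2 (0.81, 0.00228).

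At 0.03, 0.1, 0.3 and 1 mM NE, Aldh3a2 was lower than in DMSO, by -0.73, -0.69, -0.93 and -0.71 on the log2 scale (adjusted p = 0.0391, 0.0439, 0.00317 and 0.0445; 1 of 9 members each, at 2.68%, 3.44%, 5.29% and 2.81% of probes), while none of these concentrations differed from medium by the test. Hepatocyte markers were lower than in DMSO at these concentrations too, 1, 5, 6 and 6 of 8, and their part in the result was not tested. The NE slope of Aldh3a2 was 0.11 ± 0.03 per rank (adjusted p = 0.017), with 0.11 (0.127) without replicate 1, 0.12 (0.0733) without replicate 2 and 0.12 (0.099) without the 10 mM wells.

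These were 2 of 9 members called at 10 mM NE against medium, where 34% of all probes were called, and 2 of 9 at 3 mM, where 11.5% were. Over the 9 members the median log2 change was 0.33 at 10 mM and 0.05 at 3 mM, against 0.03 and -0.01 over all probes. Against DMSO, 2 of 9 were called at 10 mM NE (28.9% of probes), Aldh1a1 and Aldh2. The NE slope called 2 of 9 (26.1% of probes). At 10 mM the share of members called was no larger than that of all probes. From 0.003 to 1 mM NE against medium no member was called by edgeR in 6 comparisons (0%, 0.0162%, 0%, 0%, 0.0324% and 0.219% of probes), and 6 of 54 member tests had an unadjusted p under 0.05. The percentages are of adjusted calls. No share of all probes at an unadjusted p under 0.05 is given here or below. Counts at that threshold therefore have no background beside them.

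The cholangiocyte markers moved with these results. Their summed level was 219 to 278 CPM at 10 mM NE and 303 to 350 CPM at 3 mM NE, against 627 to 721 CPM in medium and 541 to 621 CPM in DMSO of set 1. Of the 3 marker probes tested, 3 were lower than in medium at 10 mM NE and 2 at 3 mM, while Krt7 had a median of 0 CPM. Hepatocyte markers moved in both directions. At 10 mM NE, 4 of 8 were higher and 1 lower than in medium, and 2 were higher and 4 lower than in DMSO. Their summed level there was 6131 to 8244 CPM, against 8352 to 10363 CPM in medium and 13435 to 14505 CPM in DMSO. At 3 mM NE, 2 were higher than in medium, and 1 was higher and 2 lower than in DMSO. The part of these marker changes in the Aldh1a1 and Aldh3a2 results was not tested.

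**Figure D2:**
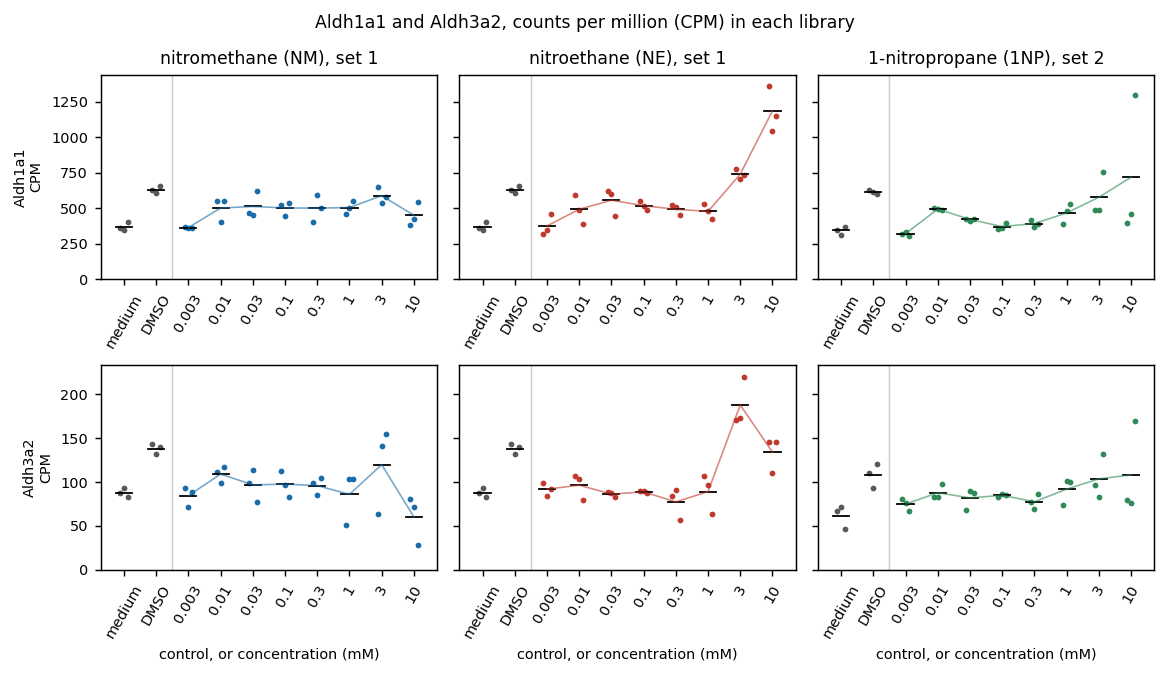
CPM of Aldh1a1 and Aldh3a2 in each library (points, n = 3 a group; black bars are group means) for medium, DMSO and the 8 concentrations in mM of each nitroalkane. Aldh1a1 reaches 1047 to 1361 CPM at 10 mM NE, above all wells of medium (348 to 405 CPM) and DMSO (607 to 654 CPM), and in the 1NP series only replicate 3 at 10 mM lies as high (1297 CPM).

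NM called no member higher than medium at 10 mM. At that concentration, Aldh1a1 had 385, 422 and 544 CPM, which overlapped the medium wells (359, 348 and 405 CPM) and lay below the DMSO wells (630, 607 and 654 CPM). The change was 0.22 (95% interval -0.09 to 0.53) against medium and -0.60 ± 0.15 (adjusted p = 0.0141) against DMSO, or -0.52 (0.0561) without NM replicate 1 and -0.71 (0.0103) without NM replicate 3.

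Aldh3a2 had 81.1, 71.2 and 28.4 CPM at 10 mM NM and was lower than in DMSO (-1.28 ± 0.35, adjusted p = 0.0253). That call was lost without NM replicate 3 (-0.92, adjusted p = 0.115) and without any of the 3 DMSO wells (-1.25 to -1.31, adjusted p = 0.0515 to 0.076). Against medium the change was -0.58 (-1.28 to 0.13). These were 2 of 9 members called against DMSO (7.19% of probes). In the same comparison 5 of 8 hepatocyte markers were lower, and Krt19 and Sox9 were higher, with summed cholangiocyte markers of 817 to 1214 CPM at 10 mM NM, against 541 to 621 CPM in DMSO. Their part in the result was not tested. Against medium edgeR and DESeq2 each called 0 of 9 (0.662% of probes), with Aldh1b1 alone at an unadjusted p under 0.05.

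The single call for NM against medium was Aldh1a1 at 3 mM (0.68 ± 0.15, adjusted p = 0.0148; 2.32% of probes), with 648, 539 and 577 CPM in NM wells, all above the medium wells. The highest of them, replicate 1, stood apart from its group, and without it the change was 0.64 (adjusted p = 0.0599). The call was also lost without medium replicate 1 (0.67, 0.0667) or 2 (0.64, 0.0775). From 0.003 to 1 mM NM no member was called against medium (0% to 0.00818% of probes), and 5 of 54 member tests had an unadjusted p under 0.05. Against DMSO none was called from 0.01 to 3 mM NM (1.01%, 1.77%, 2.03%, 3.14%, 2.05% and 0.679% of probes), with 6 of 54 at an unadjusted p under 0.05. The NM slope called 0 of 9 members in edgeR (9.88% of probes). Aldh1l1 and Aldh9a1 had an unadjusted p under 0.05 there, and DESeq2 called both.

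With 1NP at 10 mM the wells of the group disagreed. Aldh1a1 had 396, 461 and 1297 CPM, Aldh3a2 78.9, 75.6 and 170 CPM and Esd 38.7, 45.1 and 87.3 CPM, with replicate 3 the highest in each. Medium wells of set 2 had 349, 314 and 365 CPM of Aldh1a1 and 66.4, 71.1 and 46.9 CPM of Aldh3a2, all below the 1NP wells. DMSO wells of set 2, with 626, 612 and 599 CPM of Aldh1a1, lay between replicate 3 and the other 1NP wells.

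Against medium, 4 of 9 members were called at 10 mM 1NP (10.2% of probes). Aldh1a1 was higher by 1.17 ± 0.29 (adjusted p = 0.0207), Esd by 1.27 ± 0.34 (0.0245), Aldh3a2 by 0.92 ± 0.24 (0.0227) and Aldh9a1 by 0.41 ± 0.11 (0.0227). Without the library labelled replicate 3 none was called, with Aldh1a1 at 0.35 (adjusted p = 0.258), Esd at 0.76 (0.236), Aldh3a2 at 0.37 (0.287) and Aldh9a1 at 0.32 (0.146). Nor was any called without medium replicate 5 (adjusted p from 0.106 to 0.138). Without medium replicate 6, Esd and Aldh3a2 lost their calls (1.23 and 0.80, adjusted p = 0.0506 and 0.0598).

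Against DMSO, edgeR called 0 of 9 at 10 mM 1NP (2.17% of probes), with Aldh9a1 at an unadjusted p under 0.05, and DESeq2 called 1. Without replicate 3, edgeR called Aldh1a1 lower than in DMSO. The remaining 1NP wells, at 396 and 461 CPM, lay below all DMSO wells of set 2. The 1NP slope of Aldh1a1 was 0.12 ± 0.03 per rank (adjusted p = 0.0353; 1 of 9 members, 4.77% of probes), but 0.06 (adjusted p = 0.21) without the 10 mM library that stood apart, 0.03 (0.623) without replicate 3 and 0.15 (0.0918) without replicate 2. The summed cholangiocyte markers were 243 CPM in replicate 3 and 743 and 756 CPM in the other wells at 10 mM 1NP. Their part in these values was not tested.

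From 0.003 to 3 mM 1NP against medium no member was called in 7 comparisons (0.00824%, 0.19%, 0%, 0.0165%, 0%, 0.066% and 0.223% of probes), and 21 of 63 member tests had an unadjusted p under 0.05. The percentages are of adjusted calls, so they are no background for that unadjusted count. Against DMSO from 0.01 to 3 mM none was called in 6 comparisons (0.405%, 1.02%, 5.09%, 1.02%, 1.49% and 0.57% of probes), with 9 of 54 at an unadjusted p under 0.05.

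The compounds were compared with each other at matched concentrations. NE against NM at 10 mM, both in row H of set 1, called 3 of 9 members, all higher with NE, where 23.5% of probes were called and 10.2% were higher. Aldh1a1 differed most, by 1.47 ± 0.31 (95% interval 0.82 to 2.12, adjusted p = 0.0029), with 1361, 1047 and 1153 CPM in NE wells and 385, 422 and 544 CPM in NM wells, which did not overlap. Krt19 and Sox9 were lower with NE in this comparison, with summed cholangiocyte markers of 219 to 278 CPM in NE wells and 817 to 1214 CPM in NM wells, and their part in the result was not tested.

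Aldh3a2 was higher with NE than with NM by 1.20 ± 0.33 (0.50 to 1.90, adjusted p = 0.0142), and its groups did not overlap either. It kept the call without NM replicate 3 (0.84, adjusted p = 0.0461) and lost it without NE replicate 1 (1.08, 0.0568) or NE replicate 3 (1.10, 0.0523). With a replicate block Aldh3a2 was at 1.18 (adjusted p = 0.0668) and Esd at 0.93 (0.0949), and only Aldh1a1 of the 3 kept its call (1.48, 0.0193). Without the libraries that stood apart, 4 members were called, Aldh1a1 (1.75, adjusted p = 1.69e-11), Aldh3a2 (1.05), Esd (0.90) and Adh5 probe 50076. In that refit 16.2% of all probes were higher with NE and 17.3% lower.

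Among the other members, the difference between NE and NM was 0.15 for Adh5 probe 39053 (-0.19 to 0.49) and 0.19 for Aldh2 (-0.34 to 0.72). It was 0.19 for Aldh9a1 (-0.18 to 0.56) and 0.77 for Aldh1l1 (-0.38 to 1.93). Values for Adh5 probe 50076 and Aldh1b1 are not listed here. The intervals for Adh5 probe 39053 and Aldh9a1 leave little room for changes of the size seen in Aldh1a1, while that of Aldh1l1 is wide. The interval of probe 39053 does not speak for Adh5 as a whole. Probe 50076 was not called with all libraries, but it was called without those that stood apart. At 3 mM, Aldh1a1 was at 0.41 (0.10 to 0.72) and Aldh3a2 at 0.71 (0.21 to 1.21) between NE and NM, with adjusted p = 0.123 and 0.101. From 0.003 to 3 mM no member was called in 7 comparisons (0% to 2.4% of probes), and 9 of 62 member tests had an unadjusted p under 0.05.

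Because 1NP had been run with its own controls, its change from its own medium was compared with the change that NM or NE gave from theirs. At 10 mM no member was called in either comparison by edgeR (0% of probes for 1NP and NM, 0.0245% for 1NP and NE) or by DESeq2. The 1NP effect exceeded the NM effect by 1.49 for Aldh3a2 (0.51 to 2.47), 1.48 for Esd (0.62 to 2.34), 0.94 for Aldh1a1 (0.04 to 1.84) and 0.76 for Aldh9a1 (0.24 to 1.29), the 4 members with an unadjusted p under 0.05. Against the NE effect, 1NP gave -0.53 for Aldh1a1 (-1.43 to 0.36) and 0.29 for Aldh3a2 (-0.69 to 1.26), and Aldh9a1 (0.57, 0.04 to 1.10) alone had an unadjusted p under 0.05. These intervals do not show that the compounds act alike, and without 1NP replicate 3 Aldh1a1 was called in the 1NP and NE comparison. Against DMSO none was called at 10 mM either (0% of probes for 1NP and NM, 0.0408% for 1NP and NE). In all, 40 comparisons between compounds over the 8 concentrations gave 4 calls in 355 member tests, each adjusted over the probes of its comparison. The call outside 10 mM was Aldh1a1 at 0.1 mM, where the 1NP effect against DMSO was below that of NE by -0.46 ± 0.14 (adjusted p = 0.0427; 6.14% of probes).

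**Figure D3:**
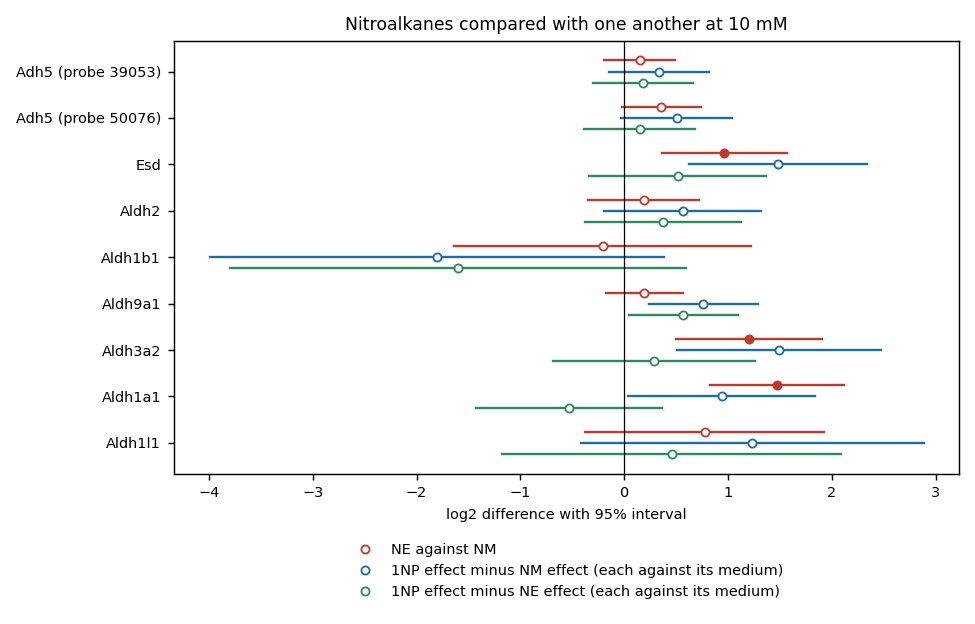
Log2 differences between nitroalkanes at 10 mM for the 9 probes, with 95% intervals (n = 3 libraries a group); filled points passed the test and open points did not. NE against NM is filled for Aldh1a1 (1.47), Aldh3a2 (1.20) and Esd (0.97), and both comparisons that involve 1NP hold open points only.

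Aldh2, the mitochondrial acetaldehyde dehydrogenase, changed little. At 10 mM NE it had 181, 158 and 205 CPM, against 222, 254 and 259 CPM in DMSO (-0.48 ± 0.16, adjusted p = 0.03) and 214, 216 and 206 CPM in medium (-0.21, 95% interval -0.55 to 0.13). The call against DMSO was lost without NE replicate 2 (-0.31, adjusted p = 0.18), DMSO replicate 2 (-0.45, 0.0906) or DMSO replicate 3 (-0.45, 0.0956). Its lowest values were 82.4 CPM in NM 10 mM replicate 3 and 93.5 CPM in NM 3 mM replicate 1, against 199 to 255 CPM in the other wells of those groups. At 0.003 mM 1NP it was higher than in DMSO of set 2, with 248, 231 and 194 CPM, against 165, 149 and 172 CPM (0.38 ± 0.12, adjusted p = 0.0318).

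Aldh9a1, which oxidises aminoaldehydes, spanned group means of 543 to 815 CPM. The same NM libraries were its lowest, with 446 CPM at 10 mM and 371 CPM at 3 mM, against 655 to 715 CPM in the other wells of those groups. In edgeR it was called once among the nitroalkane comparisons, for 1NP at 10 mM against medium, with 695, 686 and 745 CPM, above 634, 572 and 496 CPM in medium.

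Aldh1l1, the folate enzyme that disposes of formyl groups, was low, with 7 to 147 counts per library and a median of 6.76 CPM, and edgeR called it in no nitroalkane comparison, while DESeq2 called it in the NM slope. At 10 mM the NE wells had 8.91, 8.39 and 10.2 CPM, those labelled 1NP 5.40, 3.12 and 13.1 CPM and the NM wells 7.43, 7.27 and 1.69 CPM. Medium wells of set 1 had 8.35, 5.39 and 8.20 CPM, all below the NE wells and overlapping the NM wells.

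Aldh1b1, the second mitochondrial member, had 0 to 19 counts per library. Its differences were not detectable at this depth, and it was left out of 2 of the fits by the filter on low counts.

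At 0.003 mM, the lowest concentration, Aldh1a1 was lower than in DMSO with all 3 compounds. The NE wells had 320, 346 and 458 CPM and the NM wells 370, 359 and 359 CPM, against 630, 607 and 654 CPM in DMSO of set 1. It had 321, 335 and 305 CPM with 1NP, against 626, 612 and 599 CPM in DMSO of set 2. The changes were -0.82 ± 0.17 for NE (adjusted p = 0.00445; 1 of 9 members, 2.97% of probes), -0.84 ± 0.15 for NM (0.00117; 1 of 9, 3.88%) and -1.03 ± 0.29 for 1NP (0.0185; 3 of 9, 20%). Hepatocyte markers were lower in the same comparisons, 4 of 8 with NE, 5 of 8 with NM and 5 of 8 with 1NP, and Krt19 was higher in each, while Epcam was lower with 1NP. Their part in the result was not tested.

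The medium wells, in the same plate row A, read alike, with 359, 348 and 405 CPM in set 1 and 349, 314 and 365 CPM in set 2, so no 0.003 mM group stood out from medium. Over row A as a whole, Aldh1a1 ran from 320 to 458 CPM in set 1 and from 305 to 365 CPM in set 2, while row B ran from 391.5 to 654 CPM and from 487 to 626 CPM. Row B holds DMSO and 0.01 mM wells. Rows and treatments are joined here, so vehicle and row cannot be told apart.

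**Figure D4:**
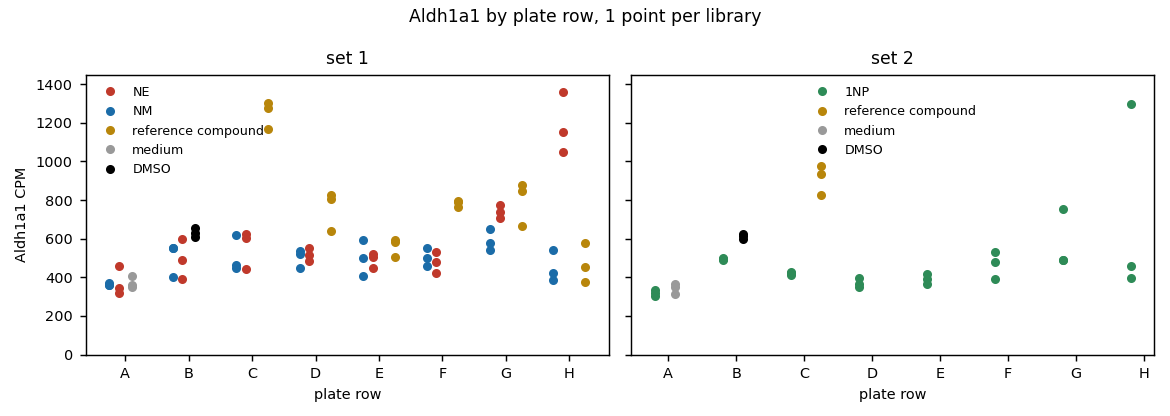
Aldh1a1 CPM in each library (1 point a library) by plate row, for set 1 (72 libraries) and set 2 (33 libraries), coloured by compound. Row A, with medium and the 0.003 mM wells, holds 320 to 458 CPM in set 1 and 305 to 365 CPM in set 2, below the DMSO wells of row B.

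The same members separated the controls. Medium against DMSO called 3 of 9 members in set 1 (7.06% of probes) and 3 of 8 in set 2 (24% of probes). Aldh1a1 was lower in medium by -0.81 ± 0.13 (adjusted p = 0.000303) in set 1 and -0.93 ± 0.12 (2.79e-05) in set 2, and Aldh3a2 by -0.69 ± 0.10 (3.19e-05) and -0.92 ± 0.14 (0.000117). Hepatocyte markers were lower in medium as well, 6 of 8 in set 1 and 5 of 8 in set 2, and their part in the difference was not tested. Aldh9a1 was higher in medium of set 1 (0.25 ± 0.07, adjusted p = 0.034), a call that was lost without any of the DMSO wells or without medium replicate 2 or 3 (0.20 to 0.27, adjusted p = 0.0564 to 0.204).

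Among the reference compounds, BaP gave the highest Aldh1a1 levels. BaP wells had 1303, 1277 and 1165 CPM of Aldh1a1 and 201, 217 and 251 CPM of Aldh3a2, against 630, 607 and 654 CPM and 143, 132 and 140 CPM in DMSO, with no overlap. The changes were 0.92 ± 0.13 (adjusted p = 2.66e-05) and 0.62 ± 0.10 (5.1e-05), and both kept their call in all 10 alternatives run. Aldh1l1 (0.76 ± 0.23, 0.037) and Adh5 probe 50076 (0.33 ± 0.09, 0.0244) were also called, which made 4 of 9 members (9.17% of probes).

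Those last calls were less stable. Aldh1l1 had 16.7, 11.99 and 11.4 CPM with BaP, against 8.64, 7.03 and 7.03 CPM in DMSO. It lost its call without BaP replicate 1 (0.55, adjusted p = 0.228) or 2 (0.82, 0.0574), or DMSO replicate 2 (0.71, 0.129) or 3 (0.70, 0.137). Adh5 probe 50076 lost its call without BaP replicate 2 (0.34, 0.0589) or 3 (0.29, 0.0858), or DMSO replicate 2 (0.25, 0.177), or with no filter on low counts (0.32, 0.101), and Adh5 probe 39053 was not called.

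Against medium, BaP called 4 of 9 (19.7% of probes): Aldh1a1 by 1.73 ± 0.14, Aldh3a2 by 1.32 ± 0.10, Aldh1l1 by 0.85 ± 0.24 and Aldh9a1 by -0.24 ± 0.07 (adjusted p = 1.01e-09, 4.72e-11, 0.00969 and 0.0208). The summed cholangiocyte markers were 370 to 425 CPM with BaP, against 541 to 621 CPM in DMSO and 627 to 721 CPM in medium. Of 8 hepatocyte markers, 3 were lower with BaP than in DMSO (Alb, Tf and Ttr) and 0 higher. Against medium 3 were higher (Cps1, Hnf4a and Tat) and 0 lower. The part of these markers in the BaP results was not tested.

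WY-14643 raised Aldh1a1 over DMSO in set 2, with 976, 935 and 828 CPM, against 626, 612 and 599 CPM (0.56 ± 0.12, adjusted p = 0.0217; 1 of 8 members, 0.901% of probes). That call was lost without any of the DMSO wells or WY-14643 replicates 4 or 5 (0.50 to 0.58, adjusted p = 0.12 to 0.214). In set 1, where it had 793, 792 and 765 CPM, edgeR and DESeq2 called 0 of 9 members against DMSO (4.88% of probes), with Aldh2 and Aldh3a2 at an unadjusted p under 0.05. Against medium, Aldh1a1 (1.01 ± 0.13 and 1.49 ± 0.12) and Aldh3a2 (0.98 ± 0.10 and 1.37 ± 0.14) were higher in sets 1 and 2, where 5.8% and 16.9% of probes were called. These were among 3 of 9 members in set 1, with Aldh9a1 lower (-0.30, adjusted p = 0.00984), and 3 of 8 in set 2, with Esd higher (0.86, 0.00893). The difference of set 2 minus set 1 called 1 of 9 members against medium, Aldh1a1 (10.3% of probes), and none against DMSO by edgeR (0% of probes).

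CITCO called no member against DMSO at 10 µM (0.149% of probes; none at an unadjusted p under 0.05 in edgeR) or 20 µM (0.843%; 3 at an unadjusted p under 0.05). Against medium, Aldh1a1 was higher by 1.05 ± 0.13 at 10 µM and 1.13 ± 0.13 at 20 µM (adjusted p = 5.28e-05 and 1.78e-06), among 2 of 9 members (2.58% of probes) and 4 of 9 (14.7%). Rifampin lowered Aldh3a2 relative to DMSO at 20 µM (-0.52 ± 0.10, adjusted p = 0.00321; 2 of 9 members, 2.87% of probes) and 40 µM (-0.43 ± 0.10, 0.021; 1 of 9, 1.69%). Rifampin wells had 103, 110 and 85.5 CPM at 20 µM and 115, 111 and 102 CPM at 40 µM, all below the DMSO wells. Aldh2 was the other member called at 20 µM (-0.34 ± 0.09, adjusted p = 0.0317). In these comparisons Alb and Apoa1 were lower and Sox9 higher at both concentrations, and Ttr lower at 20 µM, with summed hepatocyte markers of 8157 to 9896 CPM at 20 µM and 8772 to 10697 CPM at 40 µM, against 13435 to 14505 CPM in DMSO. Their part in the result was not tested. Against medium, 20 µM called none (0.273% of probes; Aldh1a1 alone at an unadjusted p under 0.05 in edgeR) and 40 µM called Aldh9a1 (-0.36, adjusted p = 0.00402; 3.31% of probes).

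**Figure D5:**
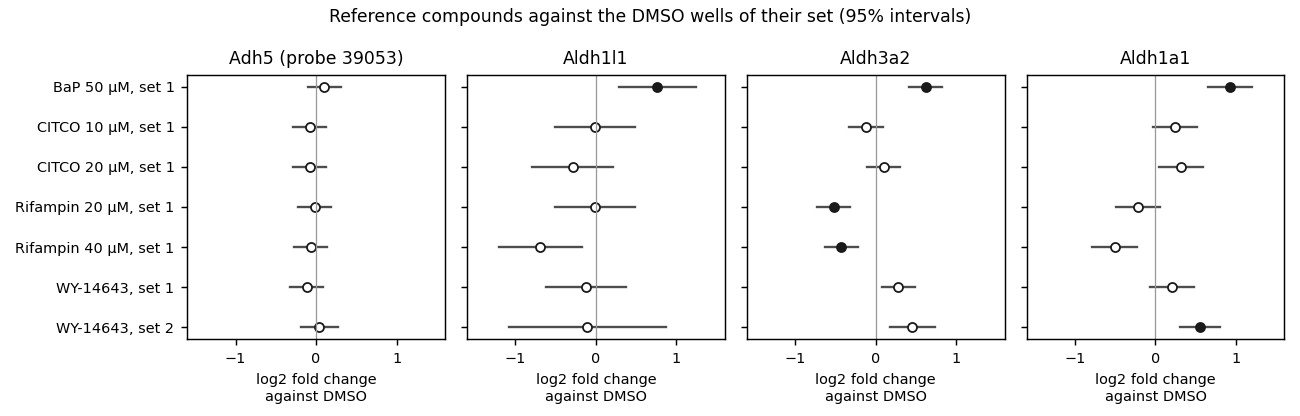
Log2 change of 4 probes under each reference compound against the DMSO wells of its set, with 95% intervals (n = 3 libraries a group); filled points passed the test. BaP is filled for Aldh1a1 (0.92), Aldh3a2 (0.62) and Aldh1l1 (0.76), rifampin lies below 0 for Aldh3a2, and no point of Adh5 probe 39053 is filled.

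Across the 24 group means of set 1, which share controls, plates and depth, Aldh1a1 and Aldh3a2 were the most alike members (Pearson r = 0.81 of log2 CPM). The probes most like Aldh1a1 among 7621 were Phyh, a peroxisomal hydroxylase (r = 0.92), Fbp1, a gluconeogenic phosphatase (0.92), and Ugt2b17, a glucuronosyltransferase (0.91). Those most like Aldh3a2 were Gpd1 (0.92), Hsd17b10 (0.92) and the peroxisomal thiolase Acaa1a (0.90). Aldh9a1 ran most like Ostf1 (0.93), Aldh2 like Coa5 (0.88), Esd like Tomm70 (0.87), and Adh5 like Dcaf12 with probe 39053 (0.87) and Adprm with probe 50076 (0.76).

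The other genes of these reactions were taken from 4 lists, chosen with earlier results of these data known. Their counts beside the share of all probes are therefore a description and no test of the lists. At 10 mM NE against medium, where 16.6% of all probes were higher and 17.4% lower, 4 of 17 folate and one-carbon probes were higher and 4 lower, which is near the share of all probes. Mat1a, which makes S-adenosylmethionine (2.55 ± 0.24, adjusted p = 6.33e-09), and the sarcosine pathway enzyme Dmgdh (1.25 ± 0.22) were higher, and the mitochondrial folate enzymes Mthfd2 (-1.11 ± 0.29) and Mthfd1l (-1.21 ± 0.33) were lower. Against DMSO, 2 of 17 were higher and 1 lower, where 13.3% of all probes were higher and 15.6% lower. Mat1a kept its call there (1.91 ± 0.25), while Dmgdh (0.09 ± 0.22), Mthfd2 (-0.48 ± 0.29) and Mthfd1l (-0.32 ± 0.34) were not called. In set 1, medium against DMSO called Mthfd2 and Mthfd1l higher and Dmgdh and Mat1a lower.

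Of 11 glutathione supply probes, 6 were higher at 10 mM NE, against 16.6% of all probes, among them Gclc, the catalytic part of the rate-limiting ligase (1.43 ± 0.13, adjusted p = 1.82e-09), and Txnrd1, thioredoxin reductase (1.70 ± 0.25). The glutathione synthetase Gss was lower (-0.97 ± 0.27). Other aldehyde and alcohol dehydrogenases had 5 of 10 higher and 1 lower, with Aldh1a2, a retinal dehydrogenase, at 1.91 ± 0.22. Aldehyde oxidases, reductases and aldehyde sources had 9 of 13 higher and 1 lower. In that list aldehyde oxidase Aox1 was at 2.56 ± 0.22, catalase Cat at 1.90 ± 0.21, monoamine oxidase Maoa at 1.59 ± 0.17 and Cyp2e1, known for oxidising small solvents, at 1.99 ± 0.49. List medians were 0.19, 0.71, 0.40 and 1.10 on the log2 scale, against 0.03 over all probes. Without NE replicate 2 the 4 lists had 4, 7, 5 and 9 probes higher and 3, 1, 1 and 0 lower, with 14.5% of all probes higher and 16.1% lower. Against DMSO, 7 of 11 glutathione supply probes, 3 of 10 other dehydrogenases and 7 of 13 oxidases, reductases and sources were higher. The lower counts were 1, 2 and 1, where 13.3% of all probes were higher and 15.6% lower. Of the genes named here, only Cyp2e1 was not called against DMSO (0.75 ± 0.40).

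At 10 mM NM against medium none of these 50 probes was called by edgeR, 7 had an unadjusted p under 0.05, and list medians were -0.14, -0.37, -0.29 and 0.05. Against DMSO (3.94% of all probes higher, 3.26% lower), Dmgdh and Mat1a of 17 folate probes were lower. So were Adhfe1, Aldh3a1 and Aldh7a1 of 10 other dehydrogenases and Cat of 12 oxidases, reductases and sources. Cbr1 was higher, and no glutathione supply probe was called. These genes, other than Adhfe1, were called in the same direction in medium against DMSO of set 1. At 10 mM 1NP against medium 4, 2, 3 and 5 probes were higher and none lower, where 6.81% of all probes were higher and 3.39% lower, and without the library labelled replicate 3 no probe of these lists was called by edgeR. NE against NM at 10 mM gave 3 higher and 2 lower of 17 folate probes, 6 higher of 11 glutathione supply probes, 4 higher of 10 other dehydrogenases and 7 higher of 12 oxidases, reductases and sources, where 10.2% of all probes were higher and 13.2% lower. Without the libraries that stood apart these counts were 4 higher and 3 lower, 8 higher and 1 lower, 6 higher, and 8 higher and 1 lower, with 16.2% of all probes higher and 17.3% lower. With BaP against DMSO, Aldh3a1, an aldehyde dehydrogenase and AhR target, was higher by 5.13 ± 0.25, beside Gclc at 0.85 ± 0.11 and catalase at 0.48 ± 0.10. In the order above, the 4 lists had 2 of 17, 4 of 11, 3 of 10 and 5 of 13 probes higher there and 0 lower. Among all probes 4.1% were higher and 5.07% lower.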

How the data were processed

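TempO-Seq probe counts, as deposited by the authors in a table of raw counts per library, were used for all 105 libraries. The submitters' processing notes name DESeq2 1.28.1, R 3.5.3, Bowtie and FastQC without saying what each was used for. The genome build is not given in the sources used here. No per-sample columns of other samples were present. Counts were filtered with filterByExpr (minimum count 10, total 15) and tested with edgeR 4.0.16 in R 4.3.3 (TMM, robust quasi-likelihood, adjustment over all probes kept), in fits of the nitroalkane series with its control, of all compounds at a concentration, and of controls and reference compounds by set. DESeq2 1.42.0 was an alternative, and the closing section gives the others. Each of the 9 member probes is named in the text. The members and lists were chosen with earlier results of these data known. The fitting steps were tested on simulated data. Replicate numbers did not pair the wells. Intervals cover the spread between wells, and the floor of 3 counts covers counting error only.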

Additional observations from a re-analysis of the deposited data

Results flagged for a closer look

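WY-14643 changed Aldh1a1 differently in the 2 sets when medium was the control. The change against medium was 1.49 ± 0.12 on the log2 scale in set 2 and 1.01 ± 0.13 in set 1, a difference of 0.47 ± 0.14 (95% interval 0.18 to 0.75, adjusted p = 0.0309 in edgeR's quasi-likelihood test). WY-14643 wells had 976, 935 and 828 CPM in set 2 and 793, 792 and 765 CPM in set 1, which did not overlap. Against DMSO the difference between the sets was 0.35 ± 0.14 (adjusted p = 0.996). The library names of set 2 carry 100 where those of set 1 carry 50, so concentration and set cannot be told apart.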

How the results depend on the processing

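The counts of members called that follow are edgeR's, with the count as reported first. Among the member values called in the reported fits, none reversed its direction. For NM 10 mM against DMSO 2 became 1 with no filter on low counts, 1 without the libraries that stand apart, 0 with only the groups compared in the fit, and 1 to 2 when a library was left out in turn. For NE 10 mM against DMSO 2 became 1 without the libraries that stand apart and 1 to 2 when a library was left out. NE 10 mM against medium gave 1 to 3 in place of 2 when a library was left out. For 1NP 10 mM against DMSO 0 became 1 with DESeq2, 1 without the libraries that stand apart and 0 to 1 when a library was left out. For 1NP 10 mM against medium 4 became 0 without the libraries that stand apart, 0 with only the groups compared and 0 to 4 when a library was left out. Leaving out a library gave 2 to 5 in place of 4 for BaP, 0 to 1 in place of 0 for WY-14643 of set 1 and 0 to 1 in place of 1 for WY-14643 of set 2, all against DMSO.

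The slope over concentration went to 2 in place of 0 with DESeq2 for NM. It went to 1 to 2 without a replicate and 0 without the 10 mM wells in place of 2 for NE. For 1NP it went to 0 to 1 without a replicate, 0 without the libraries that stand apart and 0 without the 10 mM wells, in place of 1. The slopes without libraries that stand apart and without 10 mM wells were chosen after seeing the data. For NE against NM at 10 mM, leaving out a library gave 1 to 4 in place of 3, and the replicate block, without the control wells of set 2, gave 1. With no filter, the 1NP effect minus the NM effect called 1 member against DMSO (Aldh3a2) and 2 against medium (Esd and Aldh3a2) in place of 0. The 1NP effect minus the NE effect went to 0 to 1 when a library was left out against either control, and without the libraries that stand apart to 5 against DMSO and 1 against medium, in place of 0. For NM 3 mM against medium, whose alternatives were chosen after seeing the data, 1 became 0 with only the groups compared and 0 to 1 when a library was left out. The cause was not tested.

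Of 244 recomputed counts 192 stayed within 1.5 times, and of 319 values for single members 246 kept their call and 73 lost it. Same-numbered wells correlated at -0.27 to 0.21 in their deviations, and the replicate block moved no other count by over 1.5 times. 1NP wells and their controls share no replicate numbers, so no block could be fitted there. Depth limits Aldh1b1, at 0 to 19 counts, and Aldh1l1, at 7 to 147.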

Other observations

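The library labelled 1NP 10 mM replicate 3 correlated at 0.978, 0.953 and 0.979 with the libraries of NE 10 mM replicates 1 to 3, at 0.762 to 0.888 with those of NM 10 mM and at 0.875 and 0.882 with the other libraries labelled 1NP 10 mM, over 7618 probes. For Aldh1a1 it had 1297 CPM, within the 1047 to 1361 CPM of NE 10 mM. For Esd it had 87.3 CPM, within the 65.8 to 88.6 CPM of NE 10 mM, and for Aldh3a2 170 CPM, above the 111 to 146 CPM of NE 10 mM.

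In NE 0.01 mM replicate 3, which stood apart from its group, Esd was at its highest of all libraries, with 94.1 CPM, against 52.9 and 45.9 CPM in the other replicates. NE 3 mM replicate 3 held the lowest Esd, with 14.3 CPM, against 58.9 and 50.2 CPM.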
